A study of Mus musculus with 6 samples.

Results

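Of the 13886 genes listed in the ribosome-bound RNA of MeA *Kiss1* cells, 35 were analysed here because they are genes known to be expressed by astrocytes. They were taken by gene symbol from a list of 35 names, and all 35 names were found. The values came from RNA-seq of RNA pulled down (IP) with HA-tagged ribosomes from Kiss1Cre+/Rpl22HA+/+ female mice (KissRibo), in which Kiss1-driven Cre places the HA tag on ribosomes. Ovariectomy (OVX) was done in all females when they were 8 weeks old, and they were pre-treated with E2 for 4 days and left without E2 for 7 days. The OVX group then received no further E2, and the E2 group was treated with E2 for 5 days before collection. There were 3 libraries in each group, and each was made from MeA punches of 4 mice pooled together, so that the spread between libraries is a spread between pools. The pre-treatment was shared by both groups, so that no library came from females that had never received E2 after ovariectomy. Whole-tissue Input RNA and IP RNA from Cre-negative females were not analysed here, and how far any of these genes was depleted or enriched by the pulldown was therefore not measured.

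Astrocytes take up glutamate and GABA from synapses, convert glutamate to glutamine and return it to neurons, buffer potassium and water through endfeet on blood vessels, store glycogen and deliver cholesterol on apolipoprotein particles. They are joined to each other by gap junctions. The genes are described below by these roles, from the endfoot to the transcriptional regulators. In the medial amygdala, a region that integrates chemosensory and hormonal signals, astrocytes surround the neurons from which the tagged ribosomes are taken.

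Every one of the 35 astrocyte genes was detected in every library, with a lowest value of 2.52 log2 CPM (counts scaled to the library size, on the log2 scale), in 1 OVX library for *Etnppl*. Together they held between 0.471% and 0.557% of the CPM of a library. After 5 days of E2, 1 of the 35, *Etnppl*, an enzyme that breaks down phosphoethanolamine, was higher at an adjusted p under 0.05, by 1.91-fold. This threshold was passed by 0.288% of the 13886 genes tested. The smallest adjusted p among the other 34 genes was 0.117, for *Aldoc*. Of the 35 differences, 30 lay above 0 (85.7%, against 51.1% of all genes), with a median log2 difference of 0.11 against 0.00 over all genes. The whole 95% interval of the difference lay within a 1.5-fold change in either direction for 27 of the 35 genes. The share of all genes with such an interval was not counted, so this count has no background beside it.

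Depth was alike in the 6 libraries. The scaled library size, which the smallest deposited value of a library gives, ranged from 28.1M to 34.2M in OVX and from 30.3M to 34.0M in E2 libraries. OVX replicate 2 and E2 replicate 1 were the libraries with the highest summed level of oligodendrocyte markers in their groups. The same libraries had the highest summed levels of choroid plexus and ependyma markers and of endothelial and mural markers in their groups. For *Aqp4*, *Gfap* and the 9 genes with an unadjusted p under 0.05, the differences are also given without both of them.

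The summed CPM of the 35 genes was 4710, 5512 and 4751 in OVX replicates 1, 2 and 3. In E2 replicates 1, 2 and 3 it was 5515, 4878 and 5573. The sums overlapped, with OVX replicate 2 as high as E2 replicate 1, and the group means were 4991 ± 452 in OVX and 5322 ± 385 in E2 females (SD, n = 3). On the log2 scale the summed level differed by 0.09, which is less than the SD of 0.12 between libraries of a group. *Slc1a2*, *Apoe* and *Clu* made up 39.2% of this sum. Since these are bulk samples, more astrocyte RNA in a pull-down and more RNA per astrocyte cannot be told apart. Nor can either be told apart from RNA of these genes in the tagged cells or in other cells.

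The genes varied together from library to library. In OVX replicate 3 only 2 of the 35 genes, and in OVX replicate 1 only 7, were above their own 6-library mean. In OVX replicate 2 it was 28, in E2 replicate 1 it was 32, in E2 replicate 2 it was 13 and in E2 replicate 3 it was 27. OVX replicates 1 and 3 were thus the lowest libraries, and OVX replicate 2 stood with E2 replicates 1 and 3, as the plot of levels by library shows. E2 replicate 2 lay in between, with a mean deviation of -0.04 (log2) of the 35 genes from their own means. The lowest value of a gene was found in OVX replicate 1 for 12 genes and in OVX replicate 3 for 14 genes, and the highest in E2 replicate 1 for 14 genes and in E2 replicate 3 for 11 genes.

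**Figure D1:**
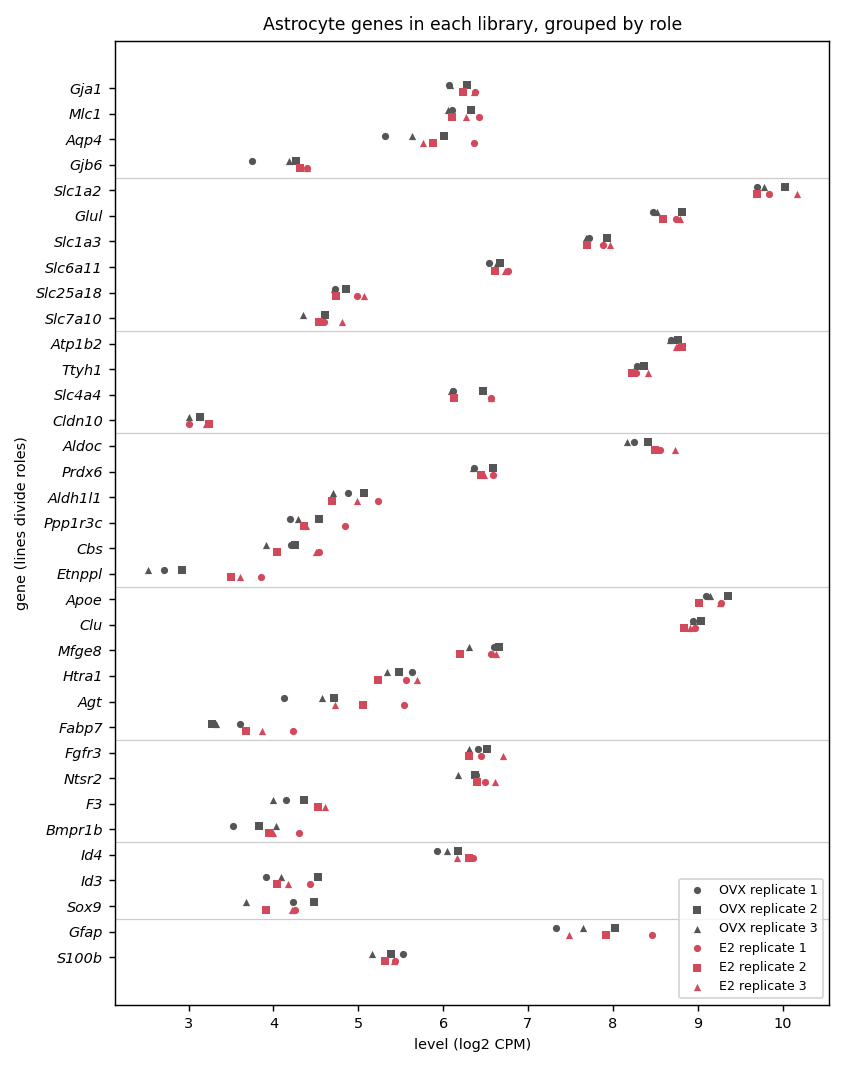
Level of each of the 35 astrocyte genes in each library (x axis, log2 CPM), with 1 row per gene, lines dividing the roles, grey points for the 3 OVX and red points for the 3 E2 libraries. *Slc1a2* lies highest near 10 and *Etnppl* is the gene whose 3 E2 points lie farthest above its 3 OVX points.

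Levels of different genes were compared per kilobase of the longest annotated transcript, for 13873 genes with a length. The longest transcript need not be the one expressed, and no other length was tried, so levels and ranks per kilobase are approximate. On this scale the 35 genes spanned a 205-fold range, from 1.02 (log2 CPM per kb) for *Etnppl* to 8.70 for *Apoe*, the main apolipoprotein made by astrocytes, which ranked 61 of 13873. *Clu*, a secreted chaperone and lipid carrier, followed at 8.08 (rank 129), and *Glul*, glutamine synthetase, at 7.17 (rank 325). The median of the 35 genes was 4.28, against 2.97 over all genes. Of the 35, 9 were in the highest 10% of all genes, 17 in the highest 25% and 29 in the upper 50%. These ranks describe RNA in a pulldown from cells labelled *Kiss1*, and they were not compared with any other tissue.

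The defining astrocyte markers were all present, at unequal levels. Per kilobase, *Gfap*, the intermediate filament of astrocytes, was at 6.41 (log2 CPM per kb) and *Slc1a2*, the main glutamate transporter, at 6.34. *Slc1a3*, the other astrocytic glutamate transporter, was at 5.66, *Aqp4*, the water channel of endfeet, at 3.49 and *Aldh1l1*, a folate enzyme widely used as an astrocyte marker, at 2.86. By the same measure the median of 14 neuron markers was 7.33, that of 12 oligodendrocyte markers 3.74, of 12 microglia markers 3.06, of 12 endothelial and mural markers 2.79, of 9 oligodendrocyte precursor markers 2.51 and of 8 choroid plexus and ependyma markers 1.92. The neuron marker *Snap25* was at 8.68 and *Rbfox3* at 6.37, and the list of neuron markers had the highest median of these lists. Single markers of other classes lay above that median, among them *Ttr* of the choroid plexus at 9.14 and *Mbp* of oligodendrocytes at 7.41, besides *Apoe* and *Clu*. *Slc1a2* RNA is also known from some neurons, and *Apoe* and *Clu* from other cells of the brain, so the level of such a gene is not one of astrocytes alone.

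**Figure D2:**
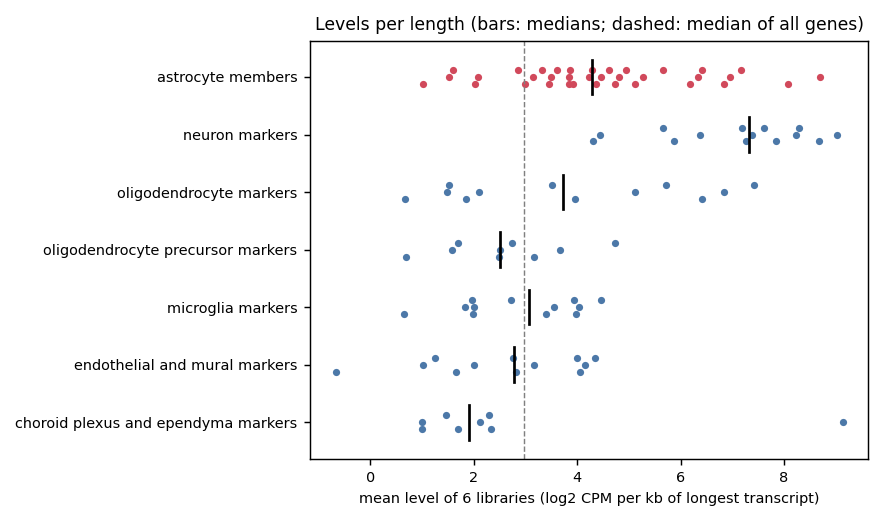
Mean level of 6 libraries per kilobase of the longest transcript (x axis, log2 CPM per kb) for the 35 astrocyte genes in red and for 6 lists of markers in blue, with black bars for list medians and a dashed line for the median of all genes (2.97). The astrocyte median of 4.28 lies below that of neuron markers (7.33) and above those of the other 5 lists. This order depends on the genes listed, since a further 40 astrocyte genes, not drawn, had a median of 2.61.

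Genes of the endfoot and of gap junctions lay at intermediate levels, and none of the 4 passed an adjusted p of 0.05. *Aqp4* was at 5.32, 6.01 and 5.63 log2 CPM in OVX replicates 1, 2 and 3 and at 6.36, 5.88 and 5.76 in E2 replicates 1, 2 and 3. Its groups overlapped, since OVX replicate 2 was above 2 of the 3 E2 libraries, and the log2 difference was 0.34 (SE 0.16, adjusted p = 0.585). The difference of *Aqp4* was 0.17 without E2 replicate 1, 0.18 without OVX replicate 1, 0.52 without OVX replicate 2 and 0.34 without both OVX replicate 2 and E2 replicate 1. *Gja1*, the major connexin of astrocytes, was at 6.07, 6.28 and 6.08 in OVX and at 6.38, 6.24 and 6.36 in E2 libraries. The difference of 0.18 (SE 0.08, adjusted p = 0.512) was smaller, and OVX replicate 2 again lay within the E2 range. *Gjb6*, the second connexin of astrocytes, was at 3.75, 4.27 and 4.18 in OVX and at 4.39, 4.31 and 4.39 in E2 libraries. All 3 E2 libraries lay above the OVX libraries for *Gjb6*, but the nearest values, 4.27 and 4.31, were close, and the log2 difference was 0.30 (SE 0.14, adjusted p = 0.576), or 0.14 without OVX replicate 1. *Mlc1*, a membrane protein of endfeet, was at 6.16 ± 0.14 in OVX and 6.26 ± 0.16 in E2 females (SD, n = 3), with an interval of the difference from -0.10 to 0.30.

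Of 6 genes for the uptake and conversion of transmitters, all 6 had a small positive difference and none passed the test. *Slc1a2*, with the highest mean log2 CPM of the 35 genes (9.87, rank 92 of 13886), was at 9.70, 10.03 and 9.78 in OVX and at 9.84, 9.70 and 10.17 in E2 libraries. *Slc1a3* was at 7.72, 7.93 and 7.68 in OVX and at 7.88, 7.70 and 7.97 in E2 libraries. For both transporters E2 replicate 2 was as low as the low OVX libraries, and the 95% interval of the log2 difference ran from -0.16 to 0.30 for *Slc1a2* and from -0.10 to 0.25 for *Slc1a3*. *Glul*, which makes glutamine from glutamate, was at 8.60 ± 0.18 in OVX and 8.71 ± 0.11 in E2 females (SD, n = 3), and 40.2% of its transcript is near-identical to a processed pseudogene, so that its level is uncertain. *Slc6a11*, an astrocytic GABA transporter, differed by 0.09 (SE 0.07) and *Slc25a18*, a mitochondrial glutamate carrier, by 0.17 (SE 0.10). *Slc7a10*, which exchanges glycine and serine, differed by 0.12 (SE 0.11), and 377 of its exonic bases are shared with *Lrp3* on the other strand, which these unstranded libraries cannot separate.

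Among 4 genes for ion transport and membrane proteins, the groups overlapped for all 4. *Atp1b2*, a subunit of the sodium pump, varied least, by 0.14 on the log2 scale over the 6 libraries, with 8.71 ± 0.06 in OVX and 8.78 ± 0.04 in E2 females (SD, n = 3). *Slc4a4*, a sodium bicarbonate cotransporter, differed by 0.19 (SE 0.12). *Ttyh1*, a membrane protein of the tweety family, differed by -0.01 (SE 0.06), or by 0.02 with quantile normalization. *Cldn10*, a claudin of tight junctions and 1 of the 3 genes with the lowest log2 CPM, was at 3.13, 3.14 and 3.01 in OVX and at 3.0, 3.24 and 3.21 in E2 libraries. The values of *Cldn10* were interleaved, with a difference of 0.05 (SE 0.16).

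The group of 6 metabolic enzymes held both genes with the smallest p among the 35. *Etnppl* (ENSMUSG00000019232, chromosome 3 from 130617448 to 130637521, GRCm38) was at 2.71, 2.92 and 2.52 log2 CPM in OVX replicates 1, 2 and 3. In E2 replicates 1, 2 and 3 it was at 3.85, 3.50 and 3.60. Each E2 library was above each OVX library, with 0.58 between the highest OVX and the lowest E2 value. *Etnppl* rose by 0.94 on the log2 scale (SE 0.17, 95% interval from 0.57 to 1.30, limma adjusted p = 0.0359), a 1.91-fold difference with an interval from 1.49 to 2.46. It was among the 3 astrocyte genes with the lowest log2 CPM, with a mean of 9.63 CPM. The call was lost when any library other than OVX replicate 2 was left out, since the adjusted p rose to 0.101 (OVX replicate 1), 0.0959 (OVX replicate 3), 0.189 (E2 replicate 1), 0.106 (E2 replicate 2) and 0.0711 (E2 replicate 3) without the library named, against 0.0225 without OVX replicate 2, and log2 differences lay between 0.84 and 1.04. It was also lost without the mean-variance trend (adjusted p = 0.315), with libraries centred on neuron markers (adjusted p = 0.0649), and without both libraries highest in oligodendrocyte markers, OVX replicate 2 and E2 replicate 1 (log2 difference 0.94, adjusted p = 0.0924).

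The 250 bases before the start of *Etnppl* are shown because it was the gene past the threshold, and those of *Fabp7* because its promoter was the only one, among the 7 genes whose groups did not overlap, with an estrogen response half-site. The capitals mark that half-site, and both sequences are from RefSeq on GRCm38.p6, plus strand, 5′ to 3′:
Etnppl, chr3:130617198-130617447: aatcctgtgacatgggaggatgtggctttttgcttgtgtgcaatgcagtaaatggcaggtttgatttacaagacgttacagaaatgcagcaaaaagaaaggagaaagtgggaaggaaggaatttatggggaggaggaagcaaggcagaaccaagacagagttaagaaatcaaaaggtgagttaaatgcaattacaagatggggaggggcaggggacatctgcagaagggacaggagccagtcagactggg
Fabp7, chr10:57784673-57784922: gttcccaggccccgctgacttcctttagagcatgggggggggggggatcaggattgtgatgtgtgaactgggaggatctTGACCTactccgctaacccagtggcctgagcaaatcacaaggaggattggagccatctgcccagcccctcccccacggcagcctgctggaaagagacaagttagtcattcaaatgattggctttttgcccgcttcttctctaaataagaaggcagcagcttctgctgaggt

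The half-site searched, AGGTCA on either strand, is the sequence to which estrogen receptors bind in pairs. It was found within 250 bases before a start in 7 of the 30 astrocyte genes with a window (*Glul*, *Slc6a11*, *Slc4a4*, *Aldh1l1*, *Fabp7*, *Bmpr1b* and *Gfap*), against 15.8% of 27025 genes. For *Fabp7* it began 171 bases before the start, and *Etnppl* held none in either of its windows. The full palindrome, GGTCA and TGACC with any 3 bases between them, of which each arm is also part of the half-site, was found in 0 of the 30 genes, against 0.0666% of all genes. ACAAT, a core of SOX factor motifs that does not overlap with the half-site, was found in 6 of the 30 genes (*Slc1a3*, *Slc25a18*, *Aldoc*, *Apoe*, *Fabp7* and *Bmpr1b*), against 30.9% of all genes. These are matches of letters in short windows and say nothing of binding.

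*Aldoc*, the brain form of the glycolytic enzyme aldolase, lies on chromosome 11 from 78322968 to 78327781 and was at 8.25, 8.41 and 8.17 in OVX and at 8.56, 8.50 and 8.73 in E2 libraries. All 3 E2 libraries were above the OVX libraries, by a log2 difference of 0.32 (SE 0.07, adjusted p = 0.117), which missed the threshold. Without OVX replicate 2 the difference was 0.39 and the adjusted p 0.0373. *Aldh1l1* was at 4.88, 5.07 and 4.70 in OVX and at 5.23, 4.69 and 4.98 in E2 libraries. The lowest *Aldh1l1* value was an E2 library, the difference was 0.08 (SE 0.13), and 499 of its exonic bases are shared with an antisense gene. *Cbs*, which makes cystathionine from homocysteine, differed by 0.24 (SE 0.15), *Ppp1r3c*, which directs a phosphatase to glycogen, by 0.18 (SE 0.14) and *Prdx6*, a peroxidase, by 0.07 (SE 0.08), and the groups overlapped for these 3 enzymes.

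Secreted proteins and lipid carriers split into 2 kinds of values. *Apoe* was at 9.10, 9.36 and 9.14 log2 CPM in OVX and at 9.28, 9.02 and 9.26 in E2 libraries. *Clu* was at 8.94, 9.04 and 8.94 in OVX and at 8.97, 8.84 and 8.91 in E2 libraries. Both genes, the highest of the 35 per kilobase, had differences near 0, of -0.02 (SE 0.08, 0.03 with quantile normalization) for *Apoe* and -0.07 (SE 0.06) for *Clu*, and their 95% intervals reached no further than from 0.88-fold to 1.11-fold. *Mfge8*, a secreted bridge for engulfment of cell debris, differed by -0.06 (SE 0.11) and *Htra1*, a secreted protease, by 0.01 (SE 0.11).

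*Agt* and *Fabp7* had the largest differences after *Etnppl*. *Agt*, angiotensinogen, on chromosome 8 from 124556534 to 124569706, was at 4.12, 4.71 and 4.57 in OVX and at 5.54, 5.06 and 4.73 in E2 libraries. It was the gene with the widest spread of the 35, 1.42 on the log2 scale, and its groups were separated only by the step from 4.71 to 4.73. The log2 difference of *Agt* was 0.64 (SE 0.18, 95% interval from 0.25 to 1.04), with an adjusted p of 0.264. *Fabp7*, a fatty acid binding protein of radial glia and astrocytes, on chromosome 10 from 57784881 to 57788450, was at 3.61, 3.28 and 3.32 in OVX and at 4.23, 3.68 and 3.86 in E2 libraries. Its difference of 0.52 (SE 0.16, 95% interval from 0.17 to 0.87) had an adjusted p of 0.321, and OVX replicate 1 was only 0.07 below the lowest E2 library. For both genes the highest value was E2 replicate 1, without which the difference was 0.43 for *Agt* and 0.37 for *Fabp7*.

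All 4 receptor genes had positive differences. *F3*, tissue factor, the cell surface receptor that starts blood clotting, lies on chromosome 3 from 121723537 to 121735048 and was at 4.15, 4.36 and 3.99 in OVX and at 4.51, 4.52 and 4.61 in E2 libraries. Its E2 libraries were close to each other and above every OVX library, by a log2 difference of 0.38 (SE 0.12, adjusted p = 0.311). *Ntsr2*, a neurotensin receptor of astrocytes, was at 6.39, 6.38 and 6.17 in OVX and at 6.49, 6.40 and 6.61 in E2 libraries. Its groups were separated by 0.01 between OVX replicate 1 and E2 replicate 2, and the difference was 0.19 (SE 0.08, adjusted p = 0.512). *Bmpr1b*, a BMP receptor, differed by 0.29 (SE 0.15) and *Fgfr3*, an FGF receptor of glia, by 0.08 (SE 0.09), and the groups overlapped for both. Of the exonic bases of *Fgfr3*, 998 are shared with a transcript of the other strand.

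Of the transcriptional regulators, *Id4*, an inhibitor of basic helix-loop-helix factors, was at 5.93, 6.18 and 6.05 in OVX and at 6.35, 6.30 and 6.16 in E2 libraries. Its difference was 0.22 (SE 0.08, adjusted p = 0.428), and E2 replicate 3 lay below OVX replicate 2. *Id3*, of the same family, differed by 0.04 (SE 0.16) and *Sox9*, a factor needed to specify astrocytes, by -0.01 (SE 0.18). *Sox9* and *Id3* varied widely among OVX libraries, with SDs of 0.41 and 0.32, and both were highest in OVX replicate 2. Without that library the difference of *Sox9* was 0.17.

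*Gfap*, which rises in reactive astrocytes, was at 7.33, 8.03 and 7.65 log2 CPM in OVX replicates 1, 2 and 3. In E2 replicates 1, 2 and 3 it was at 8.46, 7.92 and 7.48. The groups overlapped throughout, with E2 replicate 3 below 2 OVX libraries, and the difference of 0.28 (SE 0.19, 95% interval from -0.14 to 0.70, adjusted p = 0.763) was within the spread between libraries. It rested on single libraries, with 0.03 without E2 replicate 1, 0.11 without OVX replicate 1, 0.46 without OVX replicate 2, 0.52 without E2 replicate 3 and 0.21 without both OVX replicate 2 and E2 replicate 1. *S100b*, a calcium binding protein, was at 5.36 ± 0.19 in OVX and 5.39 ± 0.06 in E2 females (SD, n = 3).

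**Figure D3:**
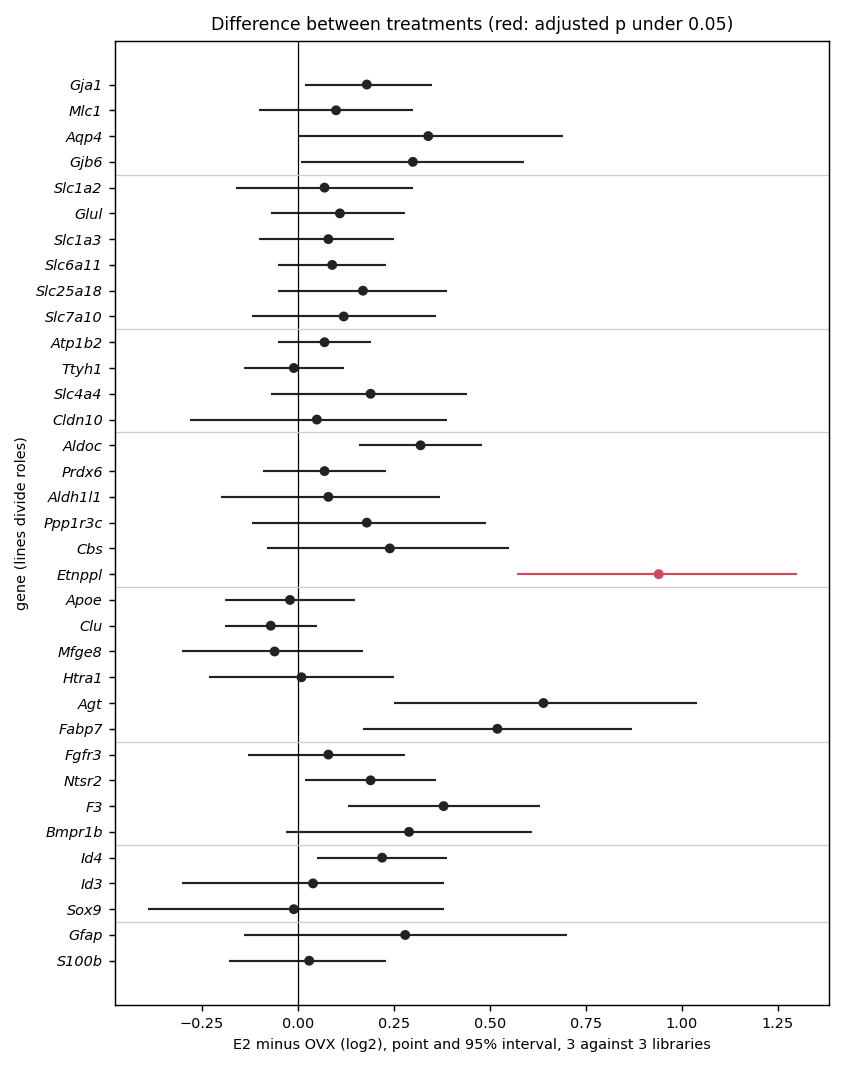
Difference between treatments for each of the 35 astrocyte genes (x axis, E2 minus OVX on the log2 scale), with points for the estimate and lines for its 95% interval from 3 against 3 libraries. *Etnppl*, in red, is at 0.94 with an interval from 0.57 to 1.30 and is the gene past an adjusted p of 0.05, and 30 of the 35 points lie above 0.

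Counted over all 35 genes, 9 were higher with E2 at an unadjusted p under 0.05 (*Etnppl*, *Aldoc*, *Agt*, *F3*, *Fabp7*, *Id4*, *Ntsr2*, *Gja1* and *Gjb6*), beside 4.21% of all genes tested. None was lower at that threshold, beside 4.34% of all genes, and 8 of these 9 missed the adjusted threshold in limma. In 7 genes (*Etnppl*, *Aldoc*, *F3*, *Ntsr2*, *Agt*, *Fabp7* and *Gjb6*) every E2 library was above every OVX library, beside 6.85% of all genes. In 0 genes was every E2 library below every OVX library, beside 6.82% of all genes. The genes are not independent of each other, since they varied together from library to library, so these counts are a description. Without E2 replicate 1 the count at an unadjusted p under 0.05 was 5. Without both OVX replicate 2 and E2 replicate 1, the differences of the 9 genes were 0.94 for *Etnppl*, 0.55 for *Agt*, 0.50 for *F3*, 0.40 for *Aldoc*, 0.38 for *Gjb6*, 0.31 for *Fabp7*, 0.24 for *Id4*, 0.23 for *Ntsr2* and 0.22 for *Gja1*. The count of genes that did not overlap was 16 without OVX replicate 2, 12 without E2 replicate 2 and 4 with libraries centred on neuron markers. With a library left out, separation is more frequent by construction. The shares of all genes were not counted under these settings, so these counts have no background beside them.

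To show which genes departed from this common movement, each was also expressed relative to the mean of the other 34 in the same library. *Etnppl* was then at -3.24, -3.25 and -3.42 in OVX and at -2.43, -2.54 and -2.60 in E2 libraries (log2). Its groups were farther apart relative to their spread than before, with 0.64 between the nearest values and a difference of 0.78. *F3* was the other gene with all E2 libraries above the OVX libraries on this scale, by a difference of 0.21. *Agt*, *Aldoc*, *Fabp7*, *Gjb6* and *Ntsr2* overlapped. *Mlc1*, *Ttyh1*, *Prdx6*, *Apoe* and *Clu* had all E2 libraries below the OVX libraries, with differences from -0.08 for *Mlc1* to -0.25 for *Clu*. This scale sums to no net change by its construction and carries no test.

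**Figure D4:**
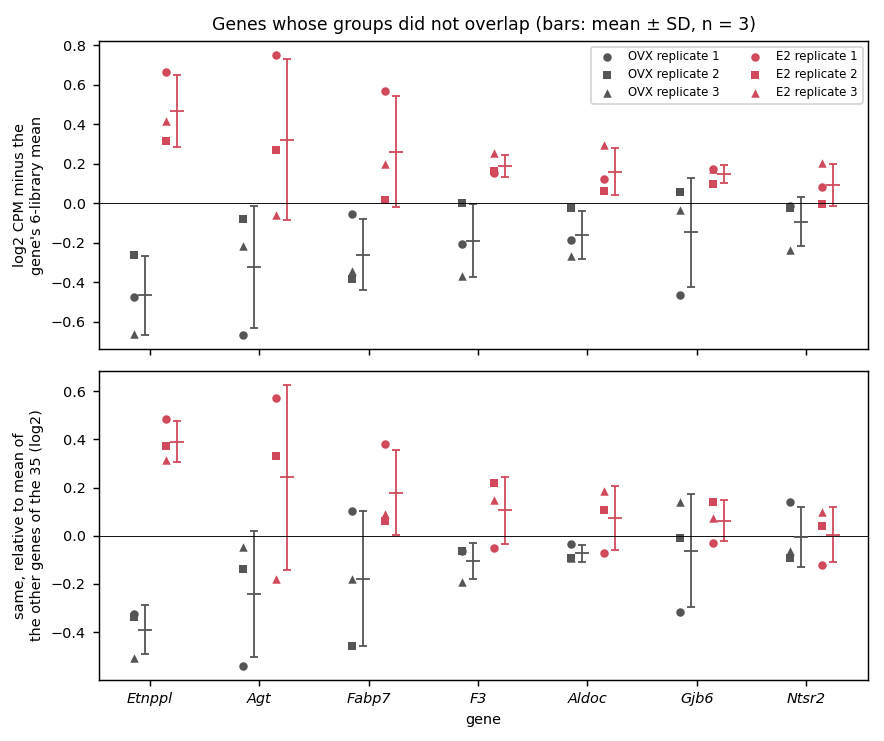
The 7 genes in which every E2 library was above every OVX library, as log2 CPM minus the gene's mean of 6 libraries (top) and relative to the mean of the other 34 astrocyte genes (bottom, y axes in log2), with a point per library, a horizontal line for the mean and bars for the SD (n = 3). *Etnppl* and *F3* stay separated in the bottom panel, and *Agt*, *Aldoc*, *Fabp7*, *Gjb6* and *Ntsr2* overlap there.

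Markers of oligodendrocytes and of endothelial and mural cells moved in part with the astrocyte genes across libraries. The mean deviation of the 35 astrocyte genes from their own means was -0.15, 0.06 and -0.18 in OVX and 0.20, -0.04 and 0.11 in E2 libraries (log2). For 12 oligodendrocyte markers it was -0.19, 0.28 and -0.32 in OVX and 0.37, 0.02 and -0.16 in E2 libraries, and for 12 endothelial and mural markers -0.25, 0.46 and -0.38 in OVX and 0.26, -0.18 and 0.10 in E2 libraries. OVX replicates 1 and 3 were low and OVX replicate 2 and E2 replicate 1 high in all 3 lists, while the astrocyte genes were also high in E2 replicate 3, where oligodendrocyte markers were not. Oligodendrocyte precursor markers (9 genes) were high there too, with mean deviations of -0.04, 0.02 and -0.20 in OVX and 0.21, -0.11 and 0.11 in E2 libraries. For 12 microglia markers the mean deviation was 0.04, 0.27 and -0.14 in OVX and -0.01, -0.17 and 0.01 in E2 libraries, and for 8 choroid plexus and ependyma markers -0.04, 0.53 and -0.07 in OVX and 0.53, -0.78 and -0.16 in E2 libraries. Microglia markers were thus neither low in OVX replicate 1 nor high in E2 replicate 1. The 14 neuron markers varied far less, from -0.03 to 0.03.

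Summed, the oligodendrocyte markers ranged from 1625 to 2298 CPM in OVX and from 1780 to 2515 CPM in E2 libraries. Endothelial and mural markers summed to 218 to 412 CPM in OVX and 260 to 339 CPM in E2 libraries, microglia markers to 200 to 250 and 189 to 215 CPM, oligodendrocyte precursor markers to 220 to 256 and 244 to 294 CPM, and choroid plexus and ependyma markers to 699 to 1090 and 406 to 1042 CPM. All these ranges overlapped between the groups. The defining markers *Mbp*, *Mog*, *Cx3cr1*, *P2ry12*, *Pdgfra* and *Cldn5* were at 3.08 log2 CPM or more in every library, with the lowest value for *P2ry12* in E2 replicate 2. Of these lists, 0 genes passed an adjusted p of 0.05 in limma. At an unadjusted p under 0.05, 1 of 12 oligodendrocyte markers (*Mobp*, 0.32) and 3 of 9 precursor markers (*Pdgfra* 0.54, *Cspg4* 0.30 and *Olig1* 0.21) were higher. So were 0 of 12 endothelial and mural markers and 0 of 14 neuron markers. At that p, 1 of 12 microglia markers and 2 of 8 choroid plexus and ependyma markers (*Clic6* -0.66 and *Kl* -0.40) were lower. Over all genes 4.21% were higher and 4.34% lower, which is the background for these lists and for those below. Genes of a list that move together are not independent, so the counts are a description.

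The summed level of 8 markers of forebrain excitatory neurons was 4297, 4430 and 3980 CPM in OVX and 3572, 3301 and 4015 CPM in E2 libraries, and the groups overlapped. Of the 8, 0 passed an adjusted p of 0.05 in limma and 6 were lower at an unadjusted p under 0.05, beside 4.34% of all genes. The smallest p were those of *Slc17a7* (-0.42, SE 0.11, adjusted p = 0.174) and *Emx1* (-0.58, SE 0.18, adjusted p = 0.316). The mean deviation of the 8 ran from 0.39 in OVX replicate 1 to -0.33 in E2 replicate 1 (log2). The part of these cell types in the differences of the astrocyte genes was not tested.

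**Figure D5:**
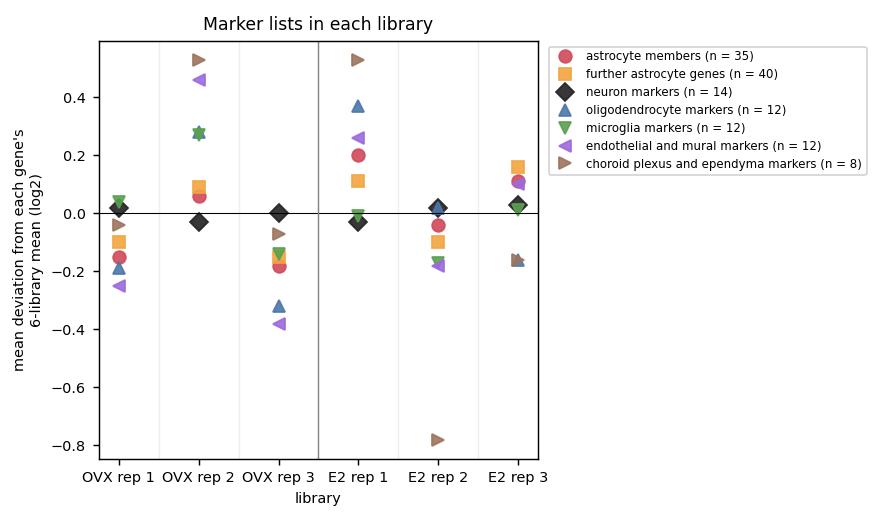
Mean deviation of each list from its genes' 6-library means (y axis, log2) in each of the 6 libraries (x axis), with 1 symbol per list. Oligodendrocyte precursor markers are not drawn. The astrocyte genes run from -0.18 in OVX replicate 3 to 0.20 in E2 replicate 1, neuron markers stay between -0.03 and 0.03, and choroid plexus and ependyma markers reach -0.78 in E2 replicate 2.

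A further 40 genes known from astrocytes, none of them among the 35, had a median difference of the same size. Their median level was lower, at 2.61 against 4.28 log2 CPM per kb. It lay below that of all genes (2.97) and of oligodendrocyte (3.74), microglia (3.06) and endothelial and mural markers (2.79). It was above that of oligodendrocyte precursor (2.51) and of choroid plexus and ependyma markers (1.92). Of the 40, 31 had a positive difference, with a median of 0.11, and 0 passed an adjusted p of 0.05 in limma. At an unadjusted p under 0.05, 5 were higher and 1 was lower, beside 4.21% and 4.34% of all genes. *Itih3*, a secreted protein that binds hyaluronan, was at 4.69, 4.50 and 4.31 in OVX and at 4.93, 4.94 and 5.08 in E2 libraries, a difference of 0.48 (SE 0.11, adjusted p = 0.117). *Cxcl14*, a chemokine, was at 5.60, 5.58 and 5.62 in OVX and at 5.81, 5.87 and 5.92 in E2 libraries, a difference of 0.27 (SE 0.07, adjusted p = 0.208). Both genes had all E2 libraries above the OVX libraries, as did *Cyp4f15* (0.68), *Ednrb*, an endothelin receptor (0.34), and *Kcnj10*, the potassium channel of endfeet (0.20). *Chrdl1*, a secreted BMP antagonist that acts on synapses, had a difference of -0.66 (SE 0.28, adjusted p = 0.536).

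Of 36 genes of reactive astrocytes named, 27 were in the table, and *Lcn2*, *Timp1*, *Steap4*, *Cxcl10*, *Iigp1*, *Ptx3*, *Slc10a6*, *B3gnt5* and *C3* were not listed. The median difference of the 27 was 0.03, with 15 above 0, and 0 passed the adjusted threshold in limma, with 1 higher and 2 lower at an unadjusted p under 0.05. *H2-T23*, a major histocompatibility gene, differed by 0.48 (SE 0.16, adjusted p = 0.392). *Ptgs2*, cyclooxygenase, which is also an activity-dependent gene of neurons, was at 3.29, 3.02 and 3.34 in OVX and at 2.14, 2.28 and 2.69 in E2 libraries. Every E2 library was thus below every OVX library for *Ptgs2*, by -0.85 (SE 0.20, adjusted p = 0.127), and so it was for *S100a10* (-0.40, SE 0.12, adjusted p = 0.281). In *H2-T23* and *Serpina3n* (0.18, SE 0.12, adjusted p = 0.732) every E2 library was above every OVX library. Of the 27 genes, 2 were thus separated in each direction, beside 6.85% of all genes above and 6.82% below.

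Glutamate and glutamine cycling was also measured with 19 further genes, not all of them limited to neurons. Of these, 0 passed the adjusted threshold in limma, and 4 were higher and 1 was lower at an unadjusted p under 0.05. *Slc17a6*, a vesicular glutamate transporter, was at 7.33, 7.42 and 7.66 in OVX and at 7.84, 8.05 and 7.72 in E2 libraries, a difference of 0.40 (SE 0.09, adjusted p = 0.117). *Gad2*, which makes GABA from glutamate, differed by 0.31 (SE 0.09, adjusted p = 0.251). *Slc17a7*, the other vesicular glutamate transporter and also 1 of the forebrain excitatory markers, was the gene that was lower at an unadjusted p under 0.05. The astrocytic partners *Slc1a2*, *Slc1a3*, *Glul* and *Slc6a11* differed by 0.07 to 0.11.

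Of 15 genes for endfoot anchoring and potassium uptake, 0 passed the adjusted threshold in limma, 2 were higher and 2 lower at an unadjusted p under 0.05, and the median difference was -0.04. *Kcnj10* had the smallest p among higher genes, with a difference of 0.20 (SE 0.07, adjusted p = 0.451). *Dag1*, dystroglycan, and *Dmd*, dystrophin, which anchor *Aqp4* at endfeet, had differences of -0.15 (SE 0.06, adjusted p = 0.535) and -0.26 (SE 0.11, adjusted p = 0.544), while that of *Aqp4* itself was 0.34.

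Among 27 genes that specify astrocytes, 1 passed the adjusted threshold. *Fgfr1*, an FGF receptor of many cell types including neurons, was at 6.87, 6.99 and 7.03 in OVX and at 7.50, 7.81 and 7.67 in E2 libraries. *Fgfr1* rose by 0.70 (SE 0.08, limma adjusted p = 0.000948), while the glial receptor *Fgfr3*, among the 35, differed by 0.08. Of the others, 2 were higher and 1 was lower at an unadjusted p under 0.05, and the median difference of the 27 genes was 0.01.

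Of 17 astrocyte factors acting on synapses, 0 passed the adjusted threshold in limma, and 2 were higher and 2 lower at an unadjusted p under 0.05. *Tnr*, an extracellular matrix protein made mainly by oligodendrocyte lineage cells and neurons, was at 7.72, 7.78 and 7.75 in OVX and at 8.02, 8.0 and 8.02 in E2 libraries, a difference of 0.26 (SE 0.05) whose adjusted p of 0.0608 was just outside the threshold. *Sparc*, a matrix protein, differed by 0.31 (SE 0.09, adjusted p = 0.282), *Gpc4*, a glypican that promotes glutamate synapses, by -0.30 (SE 0.12, adjusted p = 0.502) and *Chrdl1* by the -0.66 given above. Of 19 genes of glycogen, lactate and serine metabolism, 0 passed the adjusted threshold in limma, 1 was higher and 1 lower at an unadjusted p under 0.05, and the median difference was 0.06. *Pygm*, a glycogen phosphorylase, differed by 0.32 (SE 0.13, adjusted p = 0.480) and *Pdk4*, a kinase that inhibits pyruvate dehydrogenase, by -0.57 (SE 0.22, adjusted p = 0.463), with every E2 library below every OVX library for *Pdk4*.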

How the data were processed

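RNA-seq was performed on 6 KissRibo MeA IP libraries, 3 OVX and 3 E2. The authors trimmed reads with Trimmomatic 0.38, aligned them with STAR 2.6.0a and quantified them with RSEM on GRCm38, kept protein-coding genes whose mean CPM exceeded 1 in either group, and deposited log2 CPM after TMM scaling and voom. The libraries were unstranded and polyA-enriched. The authors' deposited table of comparisons (log2 fold changes, statistics and p-values) was not used.

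E2 was compared with OVX by limma 3.58.1 in R 4.3.3 on the log2 CPM of all 13886 genes, with treatment as the only term, a mean-variance trend, two-sided p-values and the Benjamini-Hochberg adjustment across the whole table, with 0.05 as the threshold of the adjusted p. The voom step adds 0.5 counts before the log, and no counts were tested, so that counting error enters only through the spread between libraries. The smallest p of an exact permutation of 3 against 3 libraries is 0.1, and no such test was used. Groups came from the labels. Replicate numbers were not taken to pair libraries.

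Lengths, positions and exon overlaps were taken from the GENCODE mouse annotation (GRCm38), and promoters from RefSeq (30 of the 35 genes had a window). Transcripts were called near-identical at 95% identity over at least 75 bases. The 35 genes and the other lists were chosen with earlier results of these data known. All 35 genes are named, and values in every library are given for *Aqp4*, *Gfap*, *Aldh1l1*, *Slc1a2* and *Slc1a3*, for genes with an unadjusted p under 0.05 or groups that did not overlap, and for the 3 genes with the highest and the 3 with the lowest log2 CPM. Of the other lists, genes past the threshold or otherwise the 2 with the smallest p in each direction are named, and further genes were named after their values were seen. A few genes of these lists are not reported here. The fit was tested on simulated data. Alternatives were other weights, scalings, filters and pseudocounts, a replicate block, and leaving libraries out.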

Additional observations from a re-analysis of the deposited data

How the results depend on the processing

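Of the 19 alternatives to the fit of single genes, *Etnppl* kept its direction in 19 and passed the threshold in 10. Without the mean-variance trend 0 of the 35 genes and 0 of all genes passed (*Etnppl* 0.94, adjusted p = 0.315), and 5 had an unadjusted p under 0.05. With libraries centred on neuron markers 0 of the 35 passed (*Etnppl* 0.94, adjusted p = 0.0649) and 4 did not overlap. With a replicate block 0 passed (*Etnppl* 0.94, adjusted p = 0.0756). The labels do not state a pairing of libraries. Deviations from the group means of same-numbered libraries correlated at -0.02, -0.12 and -0.08 across genes. This cannot show whether pools were handled together, since libraries with different numbers were not compared. Leaving out 1 library gave 0 to 2 of the 35 genes past the threshold, 5 to 13 at an unadjusted p under 0.05, 7 to 16 that did not overlap, 20 to 66 of all genes past the threshold (40 with all libraries) and 0.84 to 1.04 for *Etnppl*. Without both libraries highest in oligodendrocyte markers, an alternative chosen after seeing the data, 0 passed (*Etnppl* 0.94) and 18 did not overlap. With 2 libraries in a group separation is more frequent by construction, so these larger counts carry no added weight. The shares of all genes at an unadjusted p under 0.05 or without overlap were not counted under these settings. The causes of the other changes were not tested.

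The sign of 10 genes near 0 turned in at least 1 alternative. With quantile normalization it did for *Ttyh1* (0.02) and *Apoe* (0.03), and without the libraries highest in oligodendrocyte markers for *Ttyh1* (0.04), *Apoe* (0.02), *Htra1* (-0.02) and *Sox9* (0.11). Leaving out 1 library gave -0.23 to 0.17 for *Sox9*, -0.09 to 0.22 for *Id3*, -0.06 to 0.03 for *Ttyh1*, -0.07 to 0.07 for *Apoe*, -0.17 to 0.07 for *Mfge8*, -0.05 to 0.22 for *Aldh1l1*, -0.09 to 0.14 for *Htra1*, -0.07 to 0.11 for *S100b*, -0.06 to 0.17 for *Slc1a2* and -0.03 to 0.17 for *Fgfr3*. Of the 665 values of single genes under the alternatives, 629 kept direction and side of the threshold. The median log2 difference of the 35 genes stayed between 0.06 and 0.21. The edgeR alternative was not run, because the deposited values are logarithms of counts that are not whole numbers.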
